A study of Mus musculus with 16 samples.

Results

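Adult exposure to second-hand smoke (SHS) was compared with adult exposure to filtered air over all lungs of the series, whatever the animals had breathed before birth. The adult SHS side held the groups SS (SHS at both times) and AS (SHS in adult life after air before birth), with 8 arrays. The adult air side held SA (air in adult life after SHS before birth) and AA (air throughout), with the other 8 of the 16 arrays. All animals were male Balb/c mice of 15 weeks, and total RNA of the left lung had been measured on Affymetrix mouse 430 2.0 arrays. The smoke was sidestream smoke, which comes off the burning end of a cigarette, at 10 mg of particles per m3, given for 5 hours on each of 7 days of the week. The labels give no litter, array batch or hour of collection.

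Cigarette smoke carries polycyclic aromatic hydrocarbons, which bind the aryl hydrocarbon receptor (AhR), and AhR then turns on enzymes of the Cyp1 family that oxidise them. The lung also runs a circadian clock, in which CLOCK or NPAS2 pairs with ARNTL to drive the Per and Cry genes, whose products shut that pair off again. Glucocorticoids act on the same tissue through their receptor, which induces Per1, Tsc22d3 and Fkbp5 among many others. Interferon-induced GTPases of the IRG and GBP families are a separate system that attacks the vacuoles of intracellular microbes.

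Within 2 groups a pair of arrays was nearly the same. The difference over the 300 probe sets that varied most elsewhere, divided by that over the 3000 that varied least, was 1.24 for SS replicates 1 and 2 and 1.35 for AS replicates 3 and 4, against 2.84 to 5.96 for the other 22 pairs of arrays. The labels number all 16 arrays as biological replicates, and whether each such pair is 1 lung read on 2 arrays is not settled by them. Each pair was averaged and counted once, which left 6 adult SHS samples (3 SS, 3 AS) and 8 adult air samples (4 SA, 4 AA). AS replicates 1 and 2 also stood off from AS replicates 3 and 4 over the steadiest probe sets, by 0.207 to 0.257 (root mean square, log2), against 0.0582 to 0.132 in the other 20 pairs. The arrays read lung: Sftpc, the surfactant protein C gene, lay between 15.01 and 15.11 and the club cell gene Scgb1a1 between 14.91 and 15.00 on the log2 scale, while the liver gene Alb lay between 5.39 and 5.80. The heart muscle gene Myh6 reached 11.06 to 12.43, and the list of 11 cardiac genes had a median adult SHS difference of −0.10 with no member past the limma threshold (0 higher and 1 lower at an unadjusted p under 0.05).

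For each probe set, a linear model with adult and in-utero exposure as additive terms gave 1 adult SHS difference, adult SHS minus adult air on the log2 scale, with its standard error (±). A probe set passed at a Benjamini-Hochberg adjusted p under 0.05 from limma, and all adjusted p-values below are of that kind. Of 45037 probe sets, 2229 passed (4.95%), with 1073 higher (2.38%) and 1156 lower (2.57%) in adult SHS lungs. With each gene read at its brightest probe set, the one with the highest mean, 981 of 18193 genes passed (5.39%), 448 higher (2.46%) and 533 lower (2.93%). Most changes were small. The median size among those 981 genes was 0.27, 13 genes rose and 3 fell by over 2-fold, and the median over all genes was 0.00. The count of 2229 rested in part on single samples: it was 831 without SS replicate 3, 1234 without SS replicate 4, 1182 without the averaged SS sample, 1302 and 1140 without SA replicates 1 and 3, and 1387 and 1201 without AA replicates 1 and 2. Of the 2229, 689 probe sets (310 higher, 379 lower) passed in all 14 leave-one-out fits.

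The adult SHS arrays also differed from the adult air arrays in a measure of the RNA itself. The control probe sets at the 5′ and the 3′ end of Gapdh differed by −0.02 to 0.14 (5′ minus 3′, median 0.08) on the 8 adult SHS arrays and by −0.10 to 0.04 (median −0.01) on the 8 adult air arrays. For beta-actin the same difference was −0.33 to −0.17 (median −0.30) on adult SHS arrays and −0.42 to −0.31 (median −0.39) on adult air arrays. The ranges overlapped by little in both genes. With the Gapdh difference added to the fit, a step chosen after seeing the data, 104 probe sets passed (60 higher, 44 lower), of which 84 were among the 2229. All 2229 kept their sign in that fit, the median ratio of the new difference to the old was 0.99, and the median standard error was 1.41 times as large. Of the 2229, 1950 had an unadjusted p under 0.05 in that fit. The part of RNA quality in the calls was not tested beyond this.

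**Figure D1:**
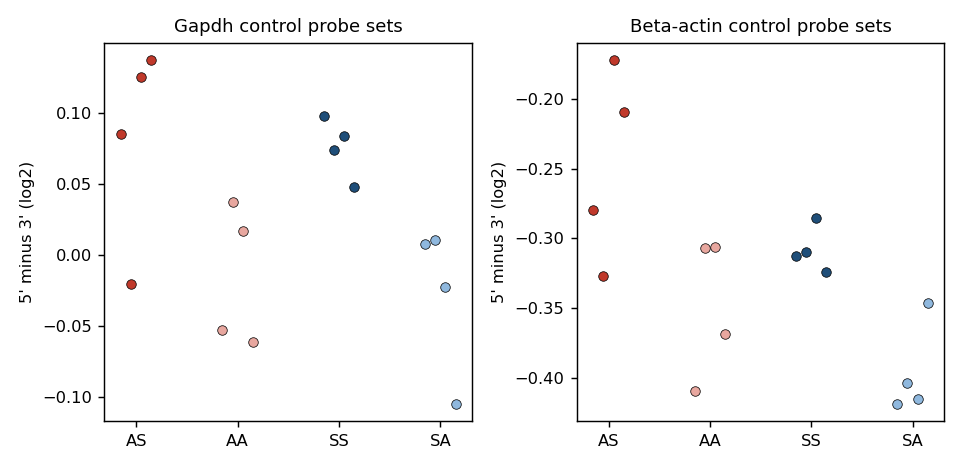
Difference between the 5′ and 3′ control probe sets of Gapdh (left) and beta-actin (right), log2, 1 point for each of the 16 arrays in the groups AS, AA, SS and SA. For Gapdh the adult SHS arrays had a median of 0.08 and the adult air arrays one of −0.01.

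The effect was then read within each in-utero background. A gene is said to have moved in both backgrounds where it passed the additive test and where, in addition, the SS values did not overlap the SA values and the AS values did not overlap the AA values, in the same direction. Of all genes 462 did so (2.54%), 199 higher (1.09%) and 263 lower (1.45%), and of all probe sets 996 did (2.21%). Without the additive test, 268 genes (1.47%) were higher and 391 (2.15%) lower with no overlap in either background. None of the 981 genes that passed had opposite signs in SS minus SA and AS minus AA. The difference between the backgrounds, tested as an interaction, passed for 2 of the 981 (Ppp1r15a and Tox3), and 111 had an unadjusted interaction p under 0.05. The share of all genes at an unadjusted p under 0.05 was not counted. Counts at that cutoff, here and for the lists below, therefore stand without the share of all genes, and they do not set any list apart. Of the 462 genes, 0 passed the limma interaction test and 25 had an unadjusted p under 0.05. The 981 were chosen by their joint effect, and the 462 also had to separate the same way in each background. Few opposite signs and few interactions follow in part from that choice, so these counts are no test of a common effect.

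The additive test passed genes that passed in neither background tested alone. Read alone, SS minus SA called 348 genes (1.91%), AS minus AA 204 (1.12%) and the interaction 21 (0.115%). Of the 981 genes, 652 passed neither SS minus SA nor AS minus AA, 189 passed SS minus SA only, 117 AS minus AA only and 23 both. In the other direction, 136 genes that passed SS minus SA and 64 that passed AS minus AA did not pass the additive test. Each within-background contrast rests on 3 samples against 4.

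**Figure D2:**
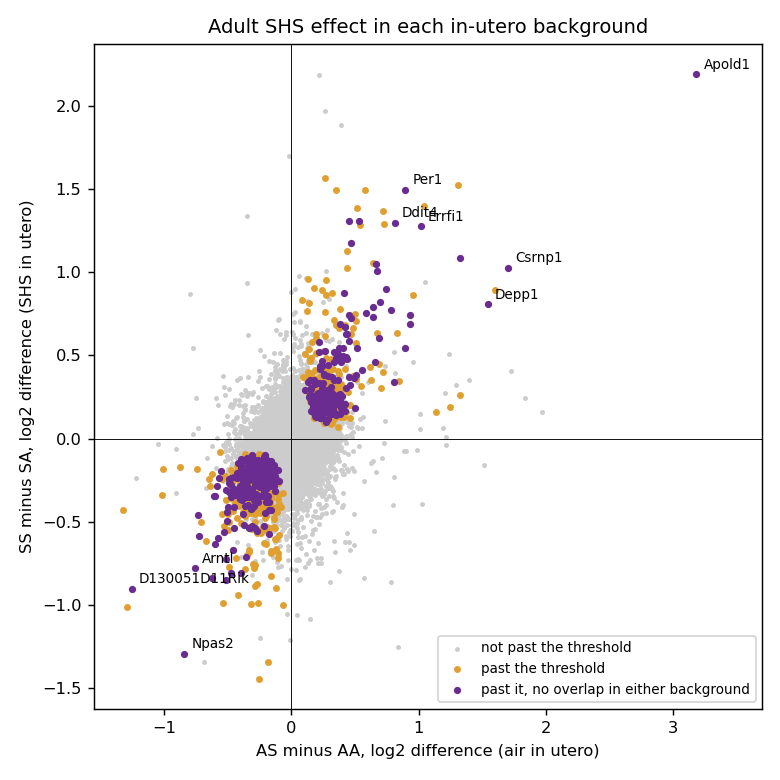
Adult SHS effect of each of 18193 genes at its brightest probe set, with AS minus AA on the x axis and SS minus SA on the y axis (log2). Orange points passed the additive test, and purple points (462 genes) also had no overlap between adult SHS and adult air samples in either background.

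Among the 15 largest rises that moved in both backgrounds, Apold1 was far in front. Apold1 encodes an apolipoprotein L domain protein that endothelial cells make early in a response to stress. Its log2 values were 8.62, 9.97 and 7.98 in SS lungs, against 6.63, 6.72, 6.68 and 6.63 in SA lungs. In AS lungs they were 9.64, 10.62 and 10.08, against 6.62, 6.59, 7.71 and 6.80 in AA lungs. Every adult SHS sample lay above every adult air sample, with a difference of 2.69 ± 0.28 (6.44-fold, adjusted p 0.000595). The gene has 1 probe set on the array.

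Errfi1, Rasd1 and Ddit4 were also among these rises. Errfi1 encodes a cytoplasmic inhibitor of the EGF receptor, and it read 13.16, 13.43 and 12.67 in SS lungs against 12.22, 11.51, 11.73 and 11.78 in SA lungs. In AS lungs it read 13.58, 13.78 and 13.30, against 12.22, 12.31, 13.16 and 12.45 in AA lungs, and the difference was 1.15 ± 0.16 (adjusted p 0.0024). The highest AA sample, replicate 3, lay within the range of the SS samples, so the separation held within each background and not over the pooled samples. Rasd1, a Ras-related protein induced by dexamethasone, rose by 1.21 ± 0.13, with adult SHS values of 7.11 to 8.50 (median 8.12) and adult air values of 6.18 to 7.24 (median 6.82). Ddit4, an inhibitor of the growth kinase complex mTORC1, rose by 1.06 ± 0.17, with adult SHS values of 9.46 to 10.69 and adult air values of 8.64 to 9.34. For Ddit4 all adult SHS samples were above all adult air samples.

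The other named rises came from several systems. Csrnp1, a nuclear protein of the early response, rose by 1.37 ± 0.17, Depp1, a target of FOXO factors, by 1.18 ± 0.14 and Rgcc, a cell cycle regulator induced by complement, by 0.88 ± 0.17. Mpp3, a membrane scaffold protein, rose by 0.92 ± 0.15, Pmvk, a kinase of isoprenoid synthesis, by 0.82 ± 0.13, and Kcne4, a potassium channel subunit, by 0.81 ± 0.14. Adamts1, a protease that cuts proteoglycans, rose by 0.84 ± 0.14. Csrnp1, Rgcc and Mpp3 each passed at 1 of their 2 probe sets. Per1, Retnla, Mt1 and Tsc22d3 complete the 15 and are described with their groups. Of the 15 rises, 9 were larger in SS minus SA than in AS minus AA, and 5 had an unadjusted interaction p under 0.05, none of them past the limma threshold after adjustment.

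The 15 largest falls that moved in both backgrounds were between 0.54 and 1.08 in size, and the 15 rises between 0.81 and 2.69. The deepest was D130051D11Rik, for which no role is given here, at −1.08 ± 0.16, with adult SHS values of 6.45 to 7.57 (median 7.04) and adult air values of 7.36 to 8.43 (median 8.14). Npas2 and Arntl, the next ones, are clock genes described below. Hgf, the growth factor ligand of the MET receptor, fell by 0.65 ± 0.11 and passed at 1 of its 3 probe sets. Snai1, a transcription factor that represses epithelial adhesion genes, fell by 0.54 ± 0.09. Cnr2, the cannabinoid receptor of immune cells, read 7.55, 7.57 and 7.53 in SS lungs against 8.14, 8.27, 8.37 and 8.27 in SA lungs. In AS lungs Cnr2 read 7.92, 7.97 and 7.60, against 8.21, 8.24, 8.05 and 8.25 in AA lungs, a difference of −0.54 ± 0.08 (adjusted p 0.00275). All adult SHS samples were below all adult air samples for Cnr2, as they were for Gpr34, a receptor for lysophosphatidylserine (−0.64 ± 0.12, with adult SHS values of 5.07 to 5.94 and adult air values of 6.02 to 6.36).

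The other named falls were H2bc18, a histone H2B gene (−0.73 ± 0.13), Ypel2 (−0.68 ± 0.09, lower at all 3 of its probe sets), Zmym1 (−0.62 ± 0.09), Gm4951 (−0.62 ± 0.10), A330001L22Rik (−0.60 ± 0.14), Arrdc4, an arrestin-domain protein (−0.56 ± 0.08), and the GTPases Ifi47 and Gbp8. Arrdc4 passed at 1 of its 2 probe sets. Leaving out 1 sample at a time, all 15 rises and 14 of the 15 falls passed in each of the 14 fits. A330001L22Rik did not pass without SA replicate 3 (−0.56, adjusted p 0.051) or without SS replicate 3 (−0.59, adjusted p 0.060). Of the 15 falls 12 were larger in size in SS minus SA than in AS minus AA, and 3 had an unadjusted interaction p under 0.05, none of them past the limma threshold after adjustment. With the Gapdh covariate all 30 of these rises and falls kept their sign and 11 still passed. Of the 60 other members of the gene lists below that had passed, 1 (Maff) passed with this covariate and 59 did not. All 60 kept their sign.

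**Figure D3:**
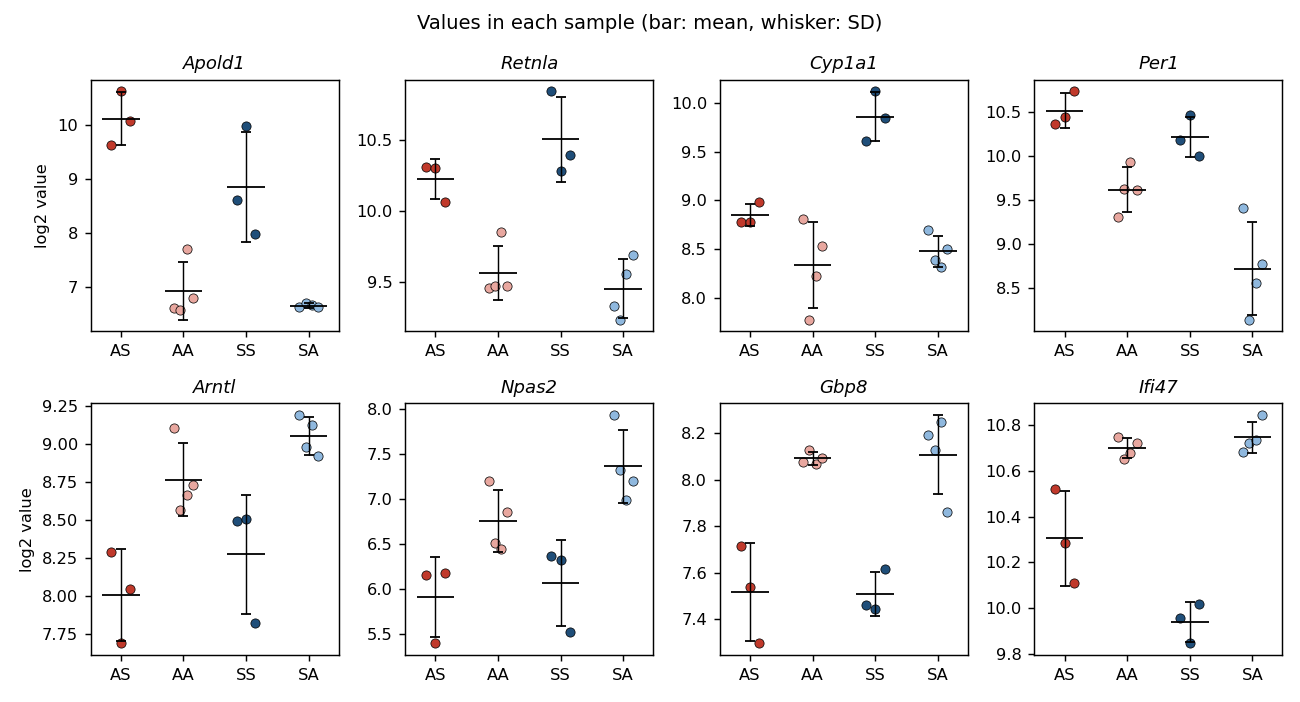
Log2 value in each of the 14 samples for 8 genes, by group (AS, AA, SS, SA), with 1 point a sample, the group mean as a bar and the SD as a whisker. The adult SHS groups are above their air groups for Apold1, Retnla, Cyp1a1 and Per1 and below them for Arntl, Npas2, Gbp8 and Ifi47. AS and AA overlap for Cyp1a1.

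Every measured member of the interferon-induced GTPase list fell. All 9 of 9 measured genes passed and were lower, against 2.93% of all genes, with a median difference of −0.38 against 0.00 over all genes. Gbp8 read 7.46, 7.44 and 7.62 in SS lungs against 8.19, 8.13, 8.25 and 7.86 in SA lungs. In AS lungs Gbp8 read 7.71, 7.54 and 7.30, against 8.07, 8.13, 8.07 and 8.09 in AA lungs, and the difference was −0.59 ± 0.07 (adjusted p 0.00129). No adult SHS value of Gbp8 reached the lowest adult air value.

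Irgm2 fell by 0.41 ± 0.07 and Igtp by 0.36 ± 0.06, while Irgm1 fell by 0.26 ± 0.06. These 3 belong to the IRG family, in which the IRGM proteins regulate the others. Among the GBP family, Gbp7 fell by 0.38 ± 0.07, Gbp6 by 0.38 ± 0.06, Gbp3 by 0.33 ± 0.06 and Gbp2 by 0.18 ± 0.04. Iigp1, an IRG effector, had the largest difference, −0.63 ± 0.12 (adjusted p 0.011), but its highest AS value, 9.75, lay above 2 of the AA values, so it was the 1 member of the 9 that did not move in both backgrounds. Ifi47, an IRG protein outside the list, read 9.96, 9.84 and 10.02 in SS lungs against 10.69, 10.72, 10.73 and 10.85 in SA lungs. In AS lungs Ifi47 read 10.52, 10.29 and 10.11, against 10.75, 10.65, 10.68 and 10.72 in AA lungs, a difference of −0.60 ± 0.08 (adjusted p 0.00177). Its fall was about the same size as that of Gbp8, and all adult SHS values were below all adult air values.

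The median fall of the 9 genes was much alike in each background, −0.33 in SS minus SA and −0.39 in AS minus AA, and none of the 9 had an unadjusted interaction p under 0.05. The mean over the list, relative to the adult air mean, was −0.49 to −0.25 in adult SHS samples and −0.09 to 0.09 in adult air samples. Gbp2 did not pass without SS replicate 3 (−0.17, adjusted p 0.066), and the other 8 passed in all 14 leave-one-out fits. With the Gapdh covariate 1 of the 9 (Gbp8) passed, all 9 were lower at an unadjusted p under 0.05, and the list median was −0.30. In that fit 1950 of all 2229 called probe sets met the same unadjusted cutoff. Members of these families are close in sequence, so a probe set may read more than 1 of them. Of 15 interferon-stimulated genes measured 1, Ifit2, was lower, against 2.93% of all genes, and the list median was −0.07. The difference of Ifit2 was −0.21 ± 0.06 (adjusted p 0.041), not past the threshold in 11 of the 14 leave-one-out fits. The 8 MHC class II genes had a median of 0.01 with none past the limma threshold and none at an unadjusted p under 0.05.

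Promoters of the GTPase genes are shown because these genes moved together. In the RefSeq promoter table (GRCm38.p6, 250 bases before to 50 after each start) the core of the interferon-stimulated response element, which is GAAA, any 2 bases and GAAA, on either strand, was found in the promoters of 3.99% of 27025 genes. It stood in all 7 of the 7 listed GTPase genes with a promoter in the table, Tgtp1 among them, which has no value here, and in 7 of 13 interferon-stimulated genes, Ifit2 not among them. This motif was searched after the fall of the GTPases had been seen. Capitals mark the motif in the 100-base stretches of Igtp (chr11:58199477-58199576, plus strand), Irgm2 (chr11:58214868-58214967, plus strand), Irgm1 (chr11:48871396-48871495, minus strand), Gbp7 (chr3:142530238-142530337, plus strand), Gbp3 (chr3:142559954-142560053, plus strand) and Gbp2 (chr3:142620559-142620658, plus strand), each read 5′ to 3′ on the strand of its gene.
Igtp: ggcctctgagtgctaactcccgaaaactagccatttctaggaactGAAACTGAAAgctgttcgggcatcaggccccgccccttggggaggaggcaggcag
Irgm2: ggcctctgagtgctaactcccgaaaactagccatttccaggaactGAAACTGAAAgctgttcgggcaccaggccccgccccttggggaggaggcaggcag
Irgm1: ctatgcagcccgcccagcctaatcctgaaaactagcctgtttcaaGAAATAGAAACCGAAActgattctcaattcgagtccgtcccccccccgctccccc
Gbp7: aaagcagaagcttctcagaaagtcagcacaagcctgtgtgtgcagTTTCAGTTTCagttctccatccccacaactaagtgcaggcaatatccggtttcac
Gbp3: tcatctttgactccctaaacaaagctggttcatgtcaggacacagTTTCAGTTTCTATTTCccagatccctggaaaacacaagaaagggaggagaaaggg
Gbp2: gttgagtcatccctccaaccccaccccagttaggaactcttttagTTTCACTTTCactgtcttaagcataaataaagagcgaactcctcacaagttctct
The first match began 34, 64 and 30 bases before the start in Igtp, Irgm2 and Irgm1, and 53, 45 and 59 bases before it in Gbp7, Gbp3 and Gbp2. In the 3 GBP genes the match runs on the other strand and reads as TTTC repeats. The Igtp and Irgm2 stretches are the same at 98 of 100 bases. A match describes letters and shows no binding. The gamma-activated site TTCNNNGAA, also searched afterwards, stood in 4 of the 7 promoters and in 9.55% of all genes, and overlapped none of the marked motifs.

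Among the clock genes, 6 of 10 repressors rose, against 2.46% of all genes. Of the activator list 3 of 5 measured members fell, against 2.93%, and that list also holds Nfil3, which encodes a repressor. None of the 10 repressors fell and none of the 5 members of the activator list rose past the threshold. Per1, a repressor that also answers directly to glucocorticoids, read 10.18, 10.46 and 10.00 in SS lungs against 9.41, 8.13, 8.55 and 8.77 in SA lungs. In AS lungs Per1 read 10.36, 10.44 and 10.73, against 9.30, 9.62, 9.92 and 9.61 in AA lungs, a difference of 1.20 ± 0.17 (adjusted p 0.00299). All 6 adult SHS samples were above all 8 adult air samples.

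Bhlhe40, a repressor of the CLOCK and ARNTL pair, rose by 0.67 ± 0.11 and Cry2, a partner of the PER proteins, by 0.40 ± 0.07, both in both backgrounds. Per2 rose by 0.73 ± 0.18, Nr1d2, which encodes REV-ERB beta, by 0.39 ± 0.11 and Ciart by 0.30 ± 0.06. The other repressors did not pass. They were Nr1d1 (0.44, adjusted p 0.10), Per3 (0.34, adjusted p 0.16), Bhlhe41 (0.27, adjusted p 0.057) and Cry1, which leaned the other way (−0.24, adjusted p 0.054, unadjusted p 0.0029). Per2 and Nr1d2 were close to the threshold: without SS replicate 4 their adjusted p-values were 0.075 and 0.102, and they passed in 6 and 2 of the 14 leave-one-out fits.

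Of the activators, Npas2 read 6.36, 6.32 and 5.52 in SS lungs against 7.93, 7.32, 6.99 and 7.20 in SA lungs. In AS lungs Npas2 read 6.16, 5.39 and 6.18, against 7.20, 6.51, 6.44 and 6.85 in AA lungs, a difference of −1.07 ± 0.19 (adjusted p 0.00916). Every adult SHS value was below every adult air value. Arntl, which encodes BMAL1, read 8.49, 8.50 and 7.82 in SS lungs against 9.19, 8.98, 9.12 and 8.92 in SA lungs. In AS lungs Arntl read 8.29, 7.68 and 8.04, against 9.11, 8.56, 8.66 and 8.73 in AA lungs, a difference of −0.77 ± 0.12 (adjusted p 0.00492). The fall of Arntl was the same size in both backgrounds, −0.78 in SS minus SA and −0.76 in AS minus AA. Clock fell by 0.26 ± 0.06. The other members of the list, Rora (−0.02, adjusted p 0.89) and the repressor Nfil3 (0.31, adjusted p 0.24), did not pass. Npas2, Arntl and Clock each passed at 1 probe set, of 2, 2 and 4.

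Of the 3 PAR-domain factors, a direct output of the clock, 2 rose, against 2.46% of all genes. Tef rose by 0.44 ± 0.09 in both backgrounds, and Dbp by 1.01 ± 0.28 (adjusted p 0.048), though Dbp overlapped between groups and passed in 2 of the 14 leave-one-out fits, with an adjusted p of 0.097 without SS replicate 4. Hlf had a difference of 0.47 and did not pass (adjusted p 0.084). Tef was the 1 of the 3 that passed in all 14 of these fits. The labels state a light-dark cycle but not the hour at which lungs were taken, and its part in these values was not tested. With the Gapdh covariate Arntl passed and none of the 6 repressors did. All 6 repressors and 3 activators kept their sign at an unadjusted p under 0.05, as did 1950 of all 2229 called probe sets. The list medians were 0.32 and −0.24.

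The promoters of Per1 and Arntl, chosen afterwards as examples, hold the letters through which each limb of the clock is known to be read. The E-box CACGTG stood in 4 of 8 clock repressor promoters (Per1, Cry1, Bhlhe41 and Ciart), in none of 5 promoters of the activator list and in 8.09% of all genes. It also stood in 1 of 3 clock output promoters, and in 4 of 12 glucocorticoid-induced and 4 of 20 immediate early genes, described below. None of the AhR target, interferon-stimulated or GTPase promoters held it. Cry1 and Bhlhe41 had not passed the test. The ROR and REV-ERB element TAGGTCA was searched after the clock results were seen. It stood in 2 of 5 promoters of the activator list (Arntl and the repressor Nfil3), in none of the 8 repressor promoters and in 2.97% of all genes. Capitals mark the E-box in Per1 (chr11:69098736-69098835, plus strand) and the second element in Arntl (chr7:113207461-113207560, plus strand).
Per1: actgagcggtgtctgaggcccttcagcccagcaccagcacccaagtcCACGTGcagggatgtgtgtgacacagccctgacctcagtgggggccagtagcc
Arntl: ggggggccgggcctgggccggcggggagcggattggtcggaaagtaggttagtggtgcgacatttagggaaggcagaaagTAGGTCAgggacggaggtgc
The E-box of Per1 began 166 bases before the start, and the element of Arntl lay 30 bases after it. The promoters of Per2 and Bhlhe40 were not in the table used here. The cAMP response element TGACGTCA was found in 2.03% of all genes and in 1 of the 13 named rises with a promoter, Errfi1 (chr4:150854973-150855072, plus strand), where it began 51 bases before the start.
Errfi1: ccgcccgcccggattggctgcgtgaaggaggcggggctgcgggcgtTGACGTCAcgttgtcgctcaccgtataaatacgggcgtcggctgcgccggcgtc

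Genes induced by glucocorticoids rose as well. Of 14 measured 7 passed and all of these were higher, against 2.46% of all genes, with a median difference of 0.83. Tsc22d3, which encodes the anti-inflammatory protein GILZ, read 12.69 in each of the SS samples against 12.01, 11.16, 11.21 and 11.66 in SA lungs. In AS lungs Tsc22d3 read 12.23, 12.22 and 12.47, against 11.66, 11.77, 11.77 and 12.14 in AA lungs, a difference of 0.82 ± 0.15 (adjusted p 0.00875). All adult SHS samples were above all adult air samples.

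The metallothioneins Mt1 and Mt2, which bind zinc and copper, rose by 0.84 ± 0.12 and 1.04 ± 0.21, and Cdkn1a, the cell cycle inhibitor p21, by 1.04 ± 0.22. Sgk1, a kinase that regulates sodium transport, rose by 0.35 ± 0.08, and lost its call without SS replicate 3 (0.34, adjusted p 0.064) and in 3 other leave-one-out fits. Per1 and Errfi1 belong to this list too. Zbtb16 (1.20, adjusted p 0.11) and Fkbp5 (1.12, adjusted p 0.057) had differences as large at their brightest probe sets but did not pass. The list median was 1.09 in SS minus SA and 0.43 in AS minus AA. Of the 14 members 8 had an unadjusted interaction p under 0.05, none of them past the limma threshold after adjustment. For that unadjusted cutoff the share of all genes was not counted. With the Gapdh covariate the list median was 0.83, Mt1 passed, and all 7 were higher at an unadjusted p under 0.05. That cutoff was met by 1950 of all 2229 called probe sets in the same fit.

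Some of the immediate early genes, which encode transcription factors and RNA-binding proteins made within minutes of a stimulus, rose too. Of 24 measured 8 rose, against 2.46% of all genes, and none fell, and the median difference was 0.58, being 0.20 in SS minus SA and 1.01 in AS minus AA. Maff, a small MAF factor, rose by 1.22 ± 0.16, with adult SHS values of 9.09 to 9.81 (median 9.54) and adult air values of 7.80 to 9.14 (median 8.15). Fosl1, a FOS-related subunit of AP-1, rose by 0.52 ± 0.10 and, with Csrnp1, was 1 of the 2 members that moved in both backgrounds. Zfp36, which speeds the decay of cytokine mRNAs, rose by 0.79 ± 0.18, with 0.26 in SS minus SA and 1.32 in AS minus AA. Of the 24 genes 8 had an unadjusted interaction p under 0.05, a count without the share of all genes. Among them 1, Klf2, passed the interaction test (−0.07 in SS minus SA and 0.98 in AS minus AA, adjusted p 0.040).

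Nr4a3 (1.41 ± 0.39), Atf3 (1.25 ± 0.33), Fosl2 (0.61 ± 0.16) and Klf4 (0.50 ± 0.13) also passed. These 4 were close to the threshold and passed in 2, 4, 3 and 5 of the 14 leave-one-out fits, while the other 4 passed in all 14. The list varied widely within groups. Its mean relative to the adult air mean was 0.19, 0.23 and −0.28 in SS lungs against −0.27, −0.13, −0.32 and −0.37 in SA lungs, and 1.29, 1.76 and 0.66 in AS lungs against 0.02, 0.27, 0.78 and 0.02 in AA lungs. The highest AA sample, replicate 3, was above the averaged AS sample and all SS samples. Of the 15 MAPK feedback genes 4 rose, against 2.46% of all genes: Rasd1, Errfi1, Dusp8, a phosphatase of stress kinases (0.65 ± 0.10), and Spry4, an inhibitor of Ras signalling (0.72 ± 0.19, past the threshold in 4 of the 14 leave-one-out fits). The median of this list was −0.02 in SS minus SA and 0.48 in AS minus AA. Of its members 5 had an unadjusted interaction p under 0.05, again without the share of all genes. Among them 1, Dusp6, a phosphatase of ERK, passed the interaction test (−0.18 in SS minus SA and 0.48 in AS minus AA, adjusted p 0.033). With the Gapdh covariate the median of the immediate early genes was 0.75 and 2 of the 8 passed, Csrnp1 and Maff.

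**Figure D4:**
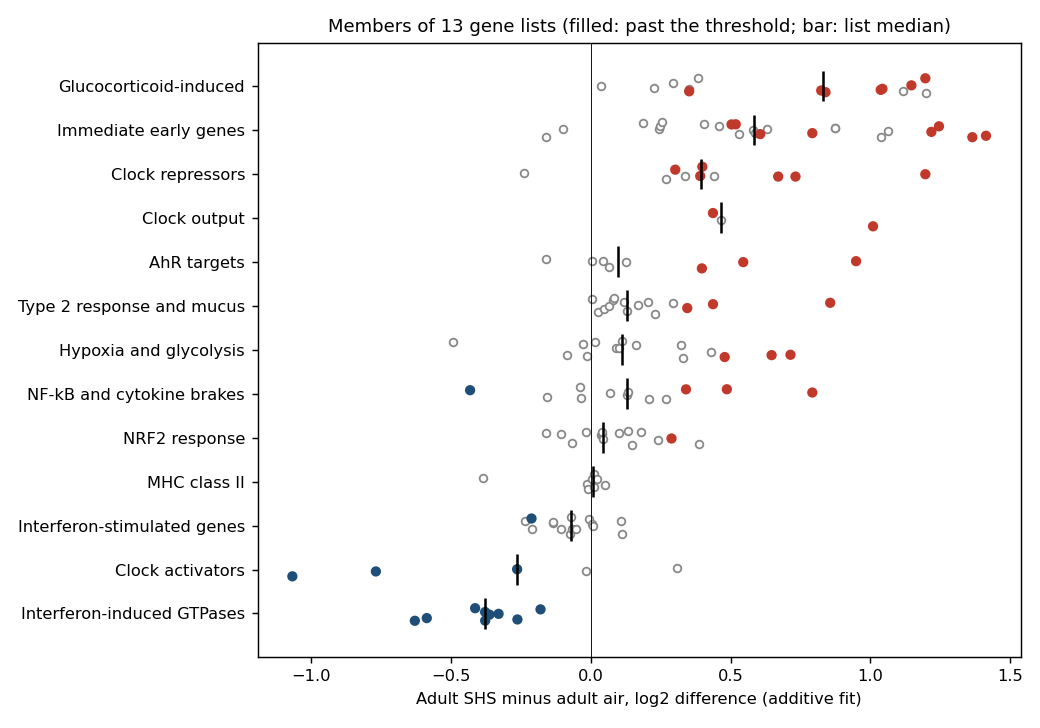
Adult SHS minus adult air difference (log2, additive fit) of each measured member of 13 gene lists, with 1 point a gene. Filled points passed (red higher, blue lower), open points did not, and the bar is the list median, which was 0.83 for glucocorticoid-induced genes and −0.38 for the interferon-induced GTPases.

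AhR targets were next. Of 8 measured 3 passed, all higher, against 2.46% of all genes, and the list median was 0.10. Cyp1b1, an oxidase of polycyclic aromatic hydrocarbons, read 8.14, 8.35 and 8.28 in SS lungs against 7.74, 7.42, 7.47 and 7.70 in SA lungs. In AS lungs Cyp1b1 read 8.27, 7.88 and 8.17, against 7.70, 7.47, 7.79 and 7.79 in AA lungs, a difference of 0.55 ± 0.08 (adjusted p 0.0042). With the Gapdh covariate none of the 3 passed in limma, and all 3 were higher at an unadjusted p under 0.05. So common was this that 1950 of all 2229 called probe sets met that cutoff. The adult SHS and adult air values of Cyp1b1 did not overlap, and the same held for Tiparp, a feedback inhibitor of AhR (0.40 ± 0.07, adult SHS values 10.93 to 11.29 and adult air values 10.52 to 10.84).

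Cyp1a1, the classic AhR-induced enzyme, read 9.61, 10.12 and 9.85 in SS lungs against 8.69, 8.39, 8.32 and 8.50 in SA lungs. In AS lungs Cyp1a1 read 8.78, 8.78 and 8.98, against 8.81, 7.77, 8.22 and 8.53 in AA lungs. The additive difference was 0.95 ± 0.17 (adjusted p 0.00916), but AS and AA overlapped and the interaction had an unadjusted p of 0.0051, so Cyp1a1 was not counted as moved in both backgrounds. Of the other members Ahrr, the AhR repressor, had a difference of 0.12 (adjusted p 0.28) and Nqo1 one of −0.16 (adjusted p 0.17). The core of the AhR site, GCGTG, stood in 5 of 9 promoters of the list and in 35.2% of all genes. It stood in 8 of 8 clock repressor, 9 of 12 glucocorticoid-induced and 12 of 20 immediate early promoters. The shares were lower in interferon-stimulated genes (6 of 13) and the GTPases (2 of 7). Its presence therefore does not set the AhR list apart.

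Among responses to oxidants, low oxygen, unfolded protein and DNA damage, 1 of 15 NRF2 genes, 3 of 15 hypoxia and glycolysis genes, 2 of 14 endoplasmic reticulum stress genes and 3 of 13 p53 targets rose, against 2.46% of all genes, and none fell. Of the NRF2 response, Srxn1, which repairs peroxiredoxins, rose (0.29 ± 0.08, adjusted p 0.045, past the threshold in 3 of the 14 leave-one-out fits), while Hmox1 had 0.39 (adjusted p 0.065). Of the hypoxia and glycolysis genes, Stc1, a secreted glycoprotein (0.71 ± 0.10), Pfkfb3, which makes the activator of phosphofructokinase (0.65 ± 0.09), and Hk2, a hexokinase (0.48 ± 0.13, past the threshold in 4 of these 14 fits), rose. Stc1 and Pfkfb3 moved in both backgrounds. Of the endoplasmic reticulum stress genes, the transcription factor Atf4 rose by 0.32 ± 0.06 and Herpud1 by 0.31 ± 0.07, the second past the threshold in 12 of these 14 fits. The median of the 14 was 0.13 in SS minus SA and −0.10 in AS minus AA. Of the 14, 6 had an unadjusted interaction p under 0.05, none of them past the limma threshold after adjustment. The share of all genes at that unadjusted cutoff was not counted. The p53 targets that rose were Cdkn1a, Sesn2, a stress-induced inhibitor of mTORC1 (0.42 ± 0.07), and Trp53inp1 (0.35 ± 0.08, adjusted p 0.057 without SS replicate 3). Another p53 target, the kinase gene Plk2, did not pass the additive test (0.31, adjusted p 0.38) and passed the interaction test, with −0.39 in SS minus SA and 1.02 in AS minus AA (adjusted p 0.040).

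Retnla led the type 2 and mucus list. Retnla encodes RELM alpha, which alternatively activated macrophages and airway epithelium of the mouse secrete, and it read 10.85, 10.28 and 10.39 in SS lungs against 9.34, 9.24, 9.56 and 9.69 in SA lungs. In AS lungs Retnla read 10.31, 10.31 and 10.06, against 9.46, 9.48, 9.85 and 9.48 in AA lungs, a difference of 0.86 ± 0.11 (adjusted p 0.00169). All adult SHS samples were above all adult air samples. The gel-forming mucins Muc5b (0.44 ± 0.10) and Muc5ac (0.34 ± 0.06) also rose in both backgrounds, although Muc5b did not pass without SS replicate 3 (0.42, adjusted p 0.065), without SS replicate 4 or without the averaged AS sample. These were 3 of 15 measured, against 2.46% of all genes, and all 15 had a difference above 0, with a median of 0.13.

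No chemokine of 14 passed in limma, against 5.39% of all genes. At an unadjusted p under 0.05, 6 were higher and 1 lower, and the share of all genes at that cutoff was not counted. Cxcl2, a neutrophil attractant, had the largest difference, 1.07 (adjusted p 0.145). It read 5.31, 5.30 and 4.93 in SS lungs against 5.04, 4.87, 4.99 and 5.18 in SA lungs, and 7.63, 8.83 and 5.28 in AS lungs against 5.08, 5.12, 5.75 and 5.16 in AA lungs. The high values were those of AS replicates 1 and 2. Of 17 cytokines Tslp (−0.38 ± 0.09) and Csf1 (−0.39 ± 0.10) fell, against 2.93% of all genes, and they passed in 4 and 6 of the 14 leave-one-out fits. Of 12 brakes on NF-kB and cytokine signalling 3 rose, against 2.46% of all genes, and 1 fell, against 2.93%. Nfkbia, the inhibitor of NF-kB, rose by 0.34 ± 0.05 at all 5 of its probe sets, and Nfkbie, a related inhibitor, fell by 0.43 ± 0.09 (adjusted p 0.050 without SS replicate 3). Tnfaip3 (0.49 ± 0.12, past the threshold in 6 of these 14 fits) and Zfp36 were the other rises.

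Cell type markers passed at a share near that of all genes. Over 19 lists with 179 measured genes, 4 rose and 7 fell (6.15%, against 5.39% of all genes), and the list medians ran between −0.24 and 0.15. The lowest median joined values of opposite sign: B and plasma cell genes had −0.62 in SS minus SA and 0.15 in AS minus AA. Of these 13 genes 7 had an unadjusted interaction p under 0.05, with none past the limma threshold after adjustment. That count too stands without the share of all genes. The medians of NK cell genes (−0.32 in SS minus SA and 0.07 in AS minus AA) and T cell genes (−0.21 in SS minus SA and 0.05 in AS minus AA) also differed in sign between the backgrounds. The largest rise was that of Scgb3a1, a secretoglobin of airway secretory cells, at 0.72 ± 0.14, with adult SHS values of 12.31 to 12.64 and adult air values of 11.07 to 12.11. The other rises were Slc39a2, a zinc importer listed for alveolar macrophages (0.29 ± 0.05), Krt15 (0.21 ± 0.05) and Il1r2, the decoy receptor of interleukin 1 (0.54 ± 0.15). Among the falls were Lrrn4 of the mesothelium (−0.47 ± 0.07), Tcf21, a fibroblast transcription factor (−0.30 ± 0.06), and Aplnr, the apelin receptor of endothelium (−0.37 ± 0.08, with −0.60 in SS minus SA and −0.13 in AS minus AA). Ccr2, the monocyte receptor (−0.57 ± 0.15), Gata3, a factor of T helper and innate lymphoid cells (−0.76 ± 0.18), Jchain of plasma cells (−0.88 ± 0.23) and Tekt1 of cilia (−0.19 ± 0.05) were the other falls. Krt15, Il1r2, Ccr2, Gata3, Jchain and Tekt1 each lost their calls in 5 or more of the 14 leave-one-out fits, and Tcf21 without SS replicate 3 (adjusted p 0.052). In whole lung, fewer cells of a type and less RNA per cell cannot be told apart.

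Among structural genes, Cldn3, a claudin of epithelial tight junctions, rose at all 4 of its probe sets and by 0.53 ± 0.08 at the brightest, with 0.55 in SS minus SA and 0.51 in AS minus AA. It was the 1 of 10 tight junction genes that passed, against 2.46% of all genes higher. Adamts1, which rose, was the 1 of 14 matrix proteases that passed, against the same 2.46%. Sc5d, an enzyme of late cholesterol synthesis (−0.24 ± 0.05), was the 1 of 11 cholesterol genes, against 2.93% of all genes lower. A single call in so short a list does not set that list apart from all genes. In 17 of the 46 lists, with 166 gene entries, no member passed in limma, against 5.39% of all genes. Of these entries 10 were higher and 9 lower at an unadjusted p under 0.05. These lists held the collagens, elastic fibre genes, heat shock proteins, cell cycle genes, the respiratory chain and ribosomal proteins.

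The brightest probe set did not always carry the change. Of 717 genes with a higher probe set, 268 (37.4%) passed only at a dimmer one, and of 810 with a lower probe set, 276 (34.1%) did. The brightest probe set had the same sign in 183 of the 268 and in 235 of the 276. Fkbp5, a chaperone partner of the glucocorticoid receptor, rose by 0.95 ± 0.21 at a dimmer probe set and had 1.12 (adjusted p 0.057) at its brightest. Klf9, a glucocorticoid-induced factor, rose by 0.73 ± 0.15 at a dimmer one and had 0.38 (adjusted p 0.057) at its brightest, and Lyve1, the hyaluronan receptor of lymphatic vessels, by 0.60 ± 0.16 and 0.46 (adjusted p 0.073). For these rises both probe sets leaned the same way.

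For the falls named here the brightest probe set was near 0. Col1a2, a chain of type I collagen, fell by 1.19 ± 0.14 at a probe set with a mean of 5.85 and had −0.03 (adjusted p 0.86) at its brightest, with a mean of 12.14. Mir99ahg fell by 1.03 ± 0.17 at a dimmer probe set and had −0.14 at its brightest, and Elk3, an ETS factor, by 0.92 ± 0.20 and −0.17. Over all 276 genes the median was −0.32 at the dimmer probe set and −0.11 at the brightest, against 0.25 and 0.06 for the 268 rises. Direction also went with brightness over all probe sets. Of 10723 with a mean under 5, 218 passed higher and 31 lower, and of 10430 above 9, 207 passed higher and 368 lower. Over all probe sets 2.38% passed higher and 2.57% lower. The median difference of all probe sets, called or not, was 0.06 under 5 and −0.03 above 9.

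**Figure D5:**
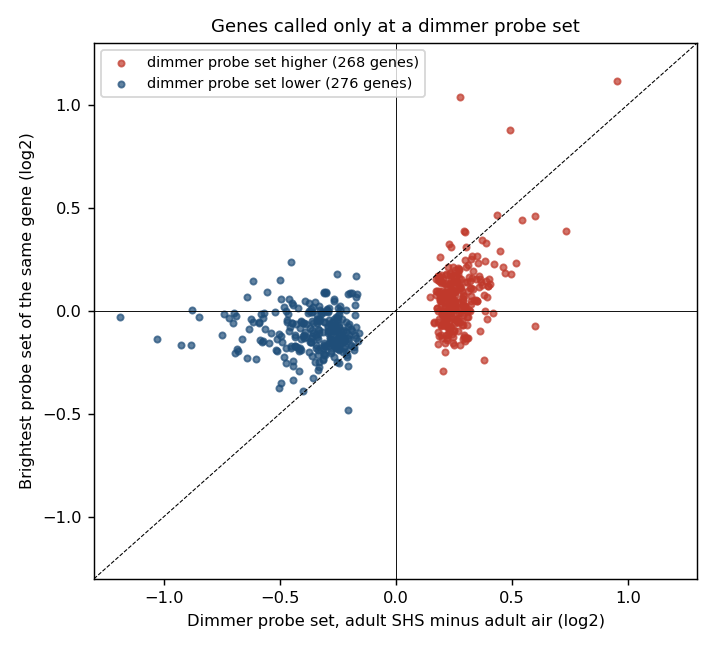
Genes that passed only at a dimmer probe set: the adult SHS minus adult air difference there (x axis, log2) against that at the gene's brightest probe set (y axis), in red for 268 rises and blue for 276 falls. The dashed line marks equal differences, and most points lie nearer to 0 on the y axis than on the x axis.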

How the data were processed

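Total RNA of the left lung was read on 16 arrays. The authors deposited 1 log2 value per probe set and array, between 2.40 and 15.11, with array medians of 6.90 to 6.93. How the values were background-corrected and normalized is not given in the sources used here. The submitters' processing notes name limma without a version. Dim probe sets were kept, and the number of arrays limits the precision.

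Of 45101 probe sets, 64 controls were left out. Genes were named from the platform annotation for 34945 probe sets with 1 symbol (932 had several, 9160 none), and 34741 symbols were updated through Entrez identifiers to RefSeq (GRCm38.p6), giving 18193 genes.

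After averaging near-identical arrays, 14 samples were fitted with limma 3.58.1 in R 4.3.3 (lmFit, eBayes), with adult and in-utero exposure as terms and 11 residual degrees of freedom. A second fit with a mean per group (10 residual degrees of freedom) gave the within-background and interaction contrasts. Tests were two-sided with Benjamini-Hochberg adjustment over 45037 probe sets at 0.05. The fit was tested on simulated data.

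Named genes are the 15 largest rises and 15 largest falls among genes that moved in both backgrounds, up to 4 members past the threshold and 2 others of each list (more for completeness), and the 3 largest changes each way at dimmer probe sets. Of 544 genes in 46 lists, 496 were measured. The comparison, the members and the lists were chosen with earlier results of these data known. The labels call the arrays biological replicates without naming animals, so p-values measure the spread between these samples. Promoters came from RefSeq, with 7 motifs searched on both strands. Alternatives covered the near-identical arrays, covariates, weights, normalization, filters and left-out samples. The genes and lists drawn in the plots, the printed promoter stretches, 3 of the motifs, and the alternatives for the counts in both backgrounds, within each background and of the interaction were chosen after seeing the data.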

Additional observations from a re-analysis of the deposited data

Results flagged for a closer look

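In 60 groups of 4 adult air samples (30 named genes, 2 groups each), 1 sample stood apart from the other 3 by Dixon's test in 3 cases. Chance gives about 1 in 20, which is about the number found. Retnla was 9.85 in AA replicate 3, with the nearest of the others at 9.48. Mt1 was 10.96 in the same sample, with the nearest at 10.39. Snai1 was 8.33 in SA replicate 3, with the nearest at 8.10.

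The adult SHS effect differed between the in-utero backgrounds for 2 of the genes that passed the additive test, by the interaction test of limma. For Ppp1r15a, a regulatory subunit that directs a phosphatase to eIF2 alpha, the effect was 0.16 ± 0.09 in SS minus SA and 1.13 ± 0.09 in AS minus AA, an interaction of −0.97 ± 0.13 (adjusted p 0.00822). For Tox3, an HMG-box factor, it was −1.0 ± 0.11 in SS minus SA and −0.06 ± 0.11 in AS minus AA, an interaction of −0.94 ± 0.16 (adjusted p 0.037). For these genes the additive difference (0.65 for Ppp1r15a, −0.53 for Tox3) describes neither background.

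The control probe sets, which were not among those tested, differed too. Those of Gapdh entered only the fit with the Gapdh covariate. The 5′ minus 3′ difference of Gapdh had a median of 0.0842 on the adult SHS arrays and of −0.01 on the adult air arrays.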

How the results depend on the processing

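The count of 2229 probe sets stayed within 1.5 times under 9 alternatives, between 1500 (cyclic loess, chosen after seeing the data) and 3163 (array weights). It was 4977 with all 16 arrays as separate samples, 1346 with 1 probe set a gene, 543 without both averaged samples and 104 with the Gapdh covariate, the last 2 chosen after seeing the data. Leaving out 1 sample at a time gave 831 to 3195. Of the calls 48.1% were higher, but 57.7% with each array centred on its median and 33.0% among probe sets above the median mean.

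No pairing by replicate number was seen. Deviations correlated at −0.16 to 0.25 (median 0.03) for 24 pairs of arrays with the same number in different groups. For 72 pairs with different numbers they correlated at −0.30 to 0.31 (median −0.02). With the replicate block and all 16 arrays the count was 4561, against 4977 for the same arrays without it. With ranges this wide the check cannot exclude a shared litter or batch, and the labels give samples of the same number nothing else in common.

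Of probe sets that moved in both backgrounds there were 996, with 534 at 1 probe set a gene, 508 without both averaged samples and 622 to 1649 leaving out 1 sample. SS minus SA called 737 probe sets, 1345 with 16 arrays and 171 to 1014 leaving out 1 sample. AS minus AA called 699, 3565 with 16 arrays and 185 to 905 leaving out 1 sample. The interaction called 59, 330 with 16 arrays and 23 to 115 leaving out 1 sample. No named gene changed sign under any alternative tried on it. The 30 largest named changes all passed with 16 arrays, array weights, quantile normalization, cyclic loess and the replicate block, and 11 passed with the Gapdh covariate. The causes of these shifts were not tested, apart from the smaller number of probe sets, samples or degrees of freedom that some alternatives imply.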
